A study of Homo sapiens with 6 samples.

Results

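The DEAD-box and DEAH-box RNA helicases were examined in TYK-nu, an established human ovarian cancer cell line, with and without a knockout of ZNFX1. Members were the protein-coding gene rows whose current symbol is DDX or DHX followed by a number, with a letter allowed after the number for DDX and with DHX58 left out. Of 53 such genes, 48 had at least 10 estimated reads in at least 3 libraries and form the set described here, out of 62260 gene rows in all. They comprise 33 DDX and 15 DHX genes. The 5 that failed the read minimum were DDX3Y and DDX4, DDX25, DDX43 and DDX53, which are mostly known from germ cells. The rule itself uses symbols, gene type and read numbers, and was set with earlier results of these data known.

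RNA helicases of these families use ATP to pull apart RNA duplexes or to strip proteins from RNA, and are named after the amino acids Asp-Glu-Ala-Asp or Asp-Glu-Ala-His in their ATPase core. DEAD-box proteins mostly open short duplexes locally, whereas DEAH-box proteins mostly move along a strand and are often switched on by partners with a G-patch domain. Between them they serve nearly every step in the life of an RNA, from transcription and splicing through nuclear export, ribosome assembly and translation to decay, and a few take part in antiviral responses. ZNFX1 itself is a helicase of another superfamily that senses viral RNA.

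Both groups were untreated TYK-nu cells: wild type (WT) and ZNFX1 KO, with 3 libraries each from total RNA, all given 1 batch number in the labels. The labels call the libraries biological replicates and name neither the knockout method nor a clone, so loss of ZNFX1 and any other change that arose in the KO line cannot be told apart. Nothing further says that the libraries came from separate cultures, so the spread behind the p-values may not be that between independent cultures. Between 19115530 and 21036063 fragments per library fell on gene rows. ZNFX1 was at 130, 208 and 109 CPM (gene-row fragments brought to a common library size) in WT 1, 2 and 3, and at 103, 70.5 and 75.2 CPM in KO 1, 2 and 3 (log2 fold change -0.85, SE 0.27, edgeR adjusted p = 0.218). The groups did not overlap, and the mRNA was still present in the KO libraries. Without WT 2 the value was -0.53 (SE 0.21, edgeR adjusted p = 0.507) and without WT 3 it was -1.01 (SE 0.25, edgeR adjusted p = 0.0468). A knockout that leaves the mRNA in place would not show in this value. Of 8 markers of ovarian tumour epithelium, KRT18, KRT8 and WT1 passed the filter for testing. PAX8, EMX2, MUC16, KRT7 and EPCAM were at or near 0, none above 0.736 TPM. The summed level of the 8 was 52.3 to 77.9 TPM in WT and 76.4 to 95.9 TPM in the KO. Most of this sum was KRT18, with means of 53.5 TPM in WT and 78 TPM in the KO. The means of KRT8 (7.68 and 4.63 TPM), WT1 (1.63 and 1.53 TPM) and EPCAM (0.513 and 0 TPM) were lower in the KO. Of 6 leukocyte markers only LYZ passed, at 0.192 to 4.49 TPM, with PTPRC at 0 in every library and a summed level of 0.192 to 1.71 TPM in WT and 1.47 to 4.59 TPM in the KO. None of 6 fibroblast markers passed, with summed levels of 0.0152 to 0.141 TPM in WT and 0.0441 to 0.11 TPM in the KO. The part of these markers in the helicase values was not tested.

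No helicase passed the test between ZNFX1 KO and WT. By edgeR's quasi-likelihood test, 0 of the 48 had an adjusted p under 0.05, where 0.727% of all 14166 tested genes did, and the smallest adjusted p was 0.162, for DDX60. At an unadjusted p under 0.05 there were 5 helicases (10.4%), against 15.1% of all genes: DDX60, DDX60L, DHX37 and DDX19B with lower values in the KO (9.19% of all genes) and DDX52 with higher values (5.92%). The groups did not overlap in 5 helicases (10.4%), against 20.2% of all genes. Of these, DDX47 and DHX8 lay above WT in every KO library (9.39% of all genes) and DDX60, DHX37 and DDX42 below (10.8%). By none of these counts was the share among the helicases above the share among all genes. With the DESeq2 Wald test 1 member was called, DDX60, where 4.09% of all genes were called, 2.41% as lower and 1.67% as higher. Without the filter on low counts edgeR called DDX60 and DDX60L, both lower, which is 4.17% of the helicases. This was above the 2.11% called among the 28559 gene rows of that fit (1.20% as lower and 0.910% as higher). Those rows include genes with hardly any reads, while every helicase passed the read minimum. The shares are therefore of unlike sets. With limma-voom 0 members were called, where 0.536% of all genes were.

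Most helicases nevertheless had a small positive log2 fold change. It was positive in 34 of 48 (70.8%), against 48.8% of all tested genes, with a median of 0.10 against -0.01. The DHX genes were positive in 13 of 15 (median 0.11) and the DDX genes in 21 of 33 (median 0.09). Values ran from -1.59 for DDX60 to 0.87 for DHX9, and apart from DDX60 and DDX60L every member lay within 1 log2 unit of 0. When WT 2 was left out, 30 of 48 were positive (62.5%, against 49.8% of all genes) and the median was 0.04. Without WT 3, 35 were positive and the median was 0.19. No test of the set was made.

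**Figure D1:**
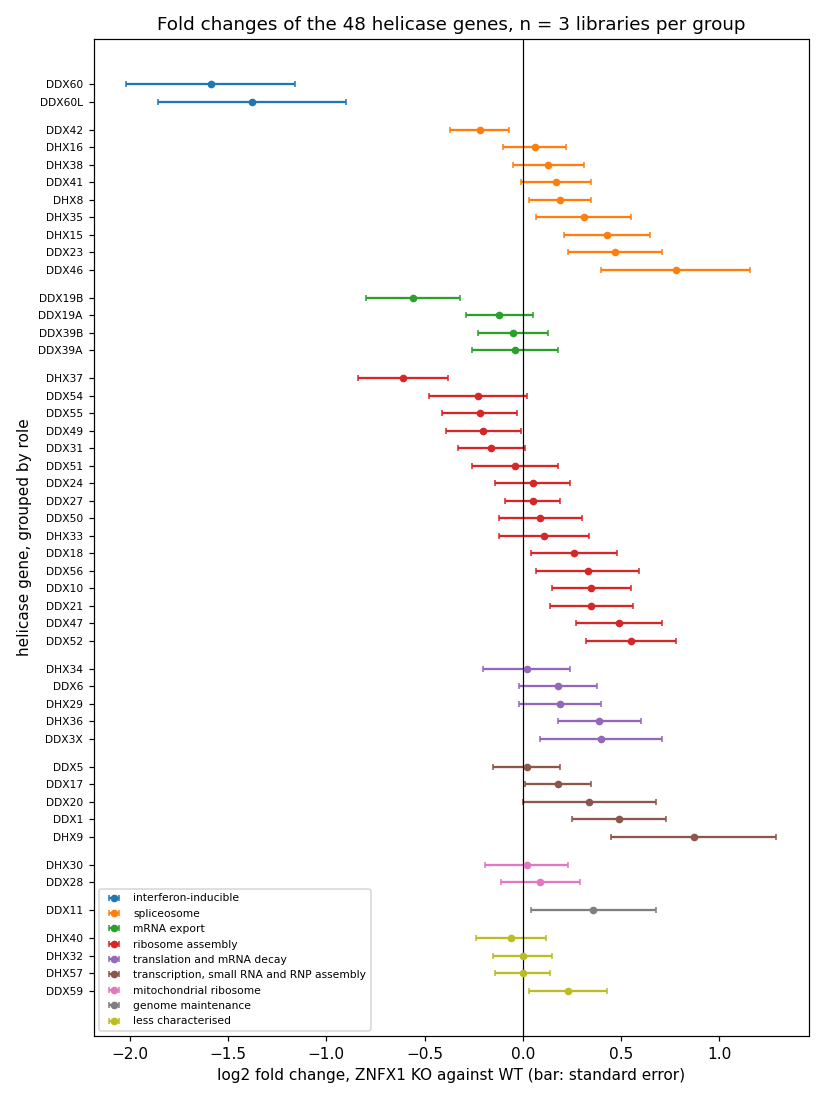
Log2 fold change of each of the 48 helicase genes in ZNFX1 KO against WT (horizontal axis), with bars for the standard error, grouped and coloured by role (vertical axis). DDX60 and DDX60L stand apart at -1.59 and -1.38, and the other members lie between -0.61 and 0.87.

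The WT libraries also differed among themselves. WT 2 was the lowest of the 6 libraries in 22 of the 48 helicases (45.8%), against 26.9% of all genes. WT 3 was the highest of the WT libraries in 34 of 48 (70.8%), against 38.8% of all genes. Relative to each gene's mean over the 6 libraries, the median helicase deviated by -0.07, -0.24 and 0.15 in WT 1, 2 and 3 on the log2 scale, and at 0.07, 0.03 and 0.11 in KO 1, 2 and 3. WT 3 thus lay just above the highest KO library and WT 2 farthest below them. The spread was wider in WT than in the KO, with a median SD of log2-CPM of 0.28 against 0.17, and 33 of 48 helicases had the larger SD in WT (68.8%, against 59.5% of all genes).

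The share of all gene fragments that fell on the 48 helicases was 0.374%, 0.379% and 0.487% in WT 1, 2 and 3, and 0.439%, 0.451% and 0.457% in KO 1, 2 and 3. Genes annotated as small nuclear, small nucleolar, ribosomal or miscellaneous structured RNAs took 13.3%, 14.4% and 8.87% of the gene fragments in WT 1, 2 and 3, and 12.4%, 7.79% and 11.5% in KO 1, 2 and 3. The WT library with the largest helicase share was the one with the smallest share of structured RNAs. In the KO this was not so, since KO 2 had the smallest share of structured RNAs and KO 3 the largest helicase share. The part of the structured RNAs in the helicase levels was not tested.

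**Figure D2:**
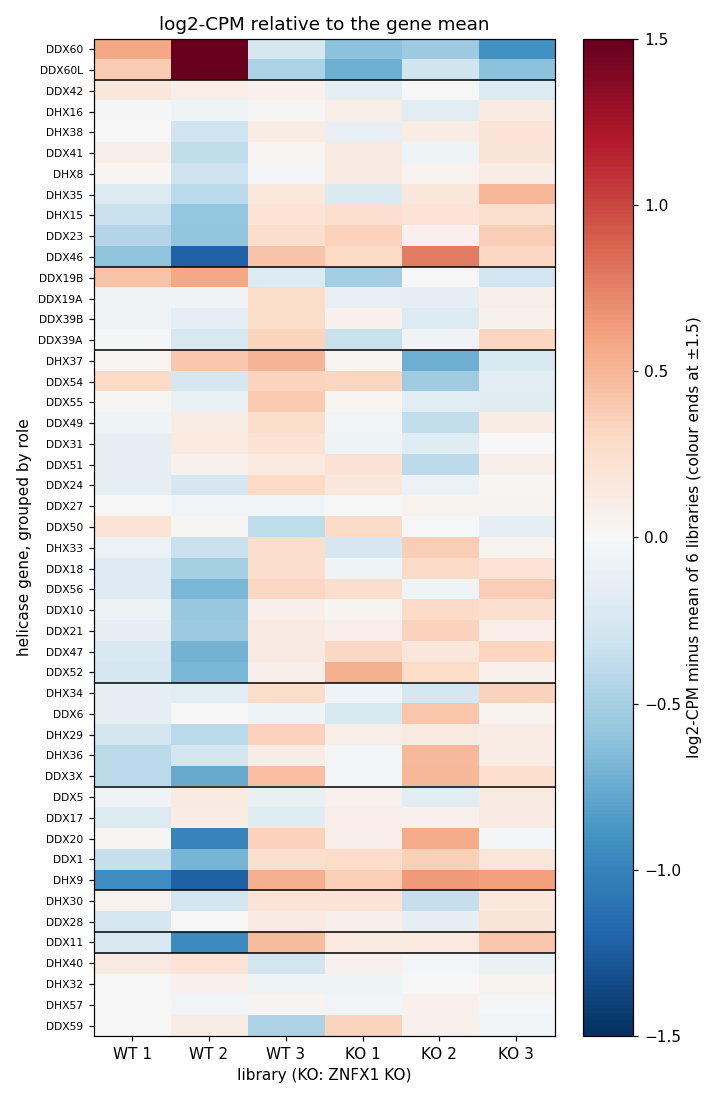
Log2-CPM of each helicase gene in each library minus the gene's mean over the 6 libraries (colour, ending at 1.5 in either direction), with genes grouped by role (rows) and libraries in columns. WT 2 is the lowest (bluest) library for 22 of the 48 genes, DHX9 and DDX46 among them, and the darkest red for DDX60 and DDX60L.

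The members differed widely in level. Per length, in TPM (which also corrects for transcript length) as a mean over the 6 libraries, the most abundant was DDX39B at 66.1, an export and splicing factor, followed by DDX5 at 56.6, DDX21 at 55, DDX17 at 49.2 and DHX9 at 47.1. DDX39B was at 67.0 ± 21.6 TPM in WT and 65.1 ± 2.13 TPM in the KO (SD, n = 3 each), and DDX5 at 56.4 ± 5.94 and 56.8 ± 3.39 TPM. These neighbours in the order overlapped in their SD in WT and stood apart in the KO, and each of the other neighbouring pairs among these 5 lay within the larger SD of the pair in both groups. The least abundant members were DDX51 at 1.68 TPM, DDX52 at 2.97 TPM and DDX20 at 3.36 TPM. DDX52 and DDX5 are among the members for which part of the reads were listed elsewhere, as described below for the transcript rows. The TPM values cover gene rows only, which held 69.1% of the reads of DDX39B and 38.2% of those of DDX5. The order of DDX39B and DDX5 may therefore depend on the rows counted.

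DDX60 and DDX60L, neighbouring genes on chromosome 4 whose products are counted among the interferon-inducible antiviral proteins, had the most negative fold changes. DDX60 (ENSG00000137628.18, 168216293 to 168318807, minus strand, GRCh38) was at 62.5, 139 and 35.3 CPM in WT 1, 2 and 3, and at 27.5, 28.8 and 22.3 CPM in KO 1, 2 and 3. The groups did not overlap, the KO being lower, and WT 2 alone lay far above the rest, at 3.93 times WT 3. The log2 fold change was -1.59 with an SE of 0.43 (edgeR adjusted p = 0.162, range of p over the alternatives 0.00551 to 0.509). DDX60L (ENSG00000181381.15, 168356735 to 168537786, minus strand) was at 69.7, 180 and 38.3 CPM in WT and at 32.2, 43.5 and 34.8 CPM in the KO. Here the groups overlapped, since KO 2 exceeded WT 3. This gave a log2 difference of -1.38 (SE 0.48, edgeR adjusted p = 0.258). Both values were nearer 0 without WT 2, where the log2 fold changes were -0.90 (SE 0.26) and -0.55 (SE 0.27), and without WT 3 both genes passed (-1.92, edgeR adjusted p = 0.0197, and -1.74, edgeR adjusted p = 0.03).

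The stretch in front of both genes is shown because these helicases followed the same libraries. RefSeq windows from 250 bases before to 50 bases after the gene start (GRCh38.p14) could be matched for 44 of the 48 members, and the 250 bases before the start of DDX60 (chr4:168318753-168319002) and of DDX60L (chr4:168480493-168480742) are printed below, both from the minus strand, with matches to the core of the interferon-stimulated response element (GAAA, any 2 bases and GAAA again) in capitals:
DDX60: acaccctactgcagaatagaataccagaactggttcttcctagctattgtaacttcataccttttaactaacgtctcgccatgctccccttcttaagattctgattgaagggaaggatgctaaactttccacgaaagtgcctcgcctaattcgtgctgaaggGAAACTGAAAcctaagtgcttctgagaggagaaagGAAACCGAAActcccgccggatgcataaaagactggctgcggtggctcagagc
DDX60L: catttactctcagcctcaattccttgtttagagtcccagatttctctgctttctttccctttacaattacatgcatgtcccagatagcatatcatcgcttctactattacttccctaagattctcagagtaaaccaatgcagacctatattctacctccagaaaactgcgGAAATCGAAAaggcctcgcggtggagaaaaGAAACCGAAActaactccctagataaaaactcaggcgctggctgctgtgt
Both strands were searched, and no match overlapped another. The first bases of the matches lie at -88 and -53 from the start in DDX60 and at -80 and -50 in DDX60L. Of the other helicases with a window only DHX15 held a match, at -215, which makes 3 of 44 members against 3.94% of the tested genes with a window and 3.57% of all windows. At least 2 matches in 1 window were found in 0.405% of the tested genes. The RefSeq starts of DDX60 and DDX60L both lie inside the longer GENCODE genes given above, so some of the printed bases fall within those genes. A letter match is a description of the window and not a tested site.

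The wider interferon-stimulated genes stood in the same libraries. Of 24 listed, 20 were tested, 0 rose, 0 fell and 20 did not pass, with a median log2 fold change of -1.22. Relative to the gene mean their median stood at -0.05, 1.75 and -0.32 in WT 1, 2 and 3 and at -0.18, -0.52 and -0.78 in KO 1, 2 and 3. The corresponding medians of DDX60 and DDX60L were 0.48, 1.74 and -0.37 in WT and -0.67, -0.42 and -0.76 in the KO. WT 2 was the highest library for all 20 genes and for both helicases, against 27.4% of all tested genes. Without WT 2 the list's median was -0.41, with 6 of 20 positive. Of the 16 genes of this list with a promoter window, 13 held the motif.

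**Figure D3:**
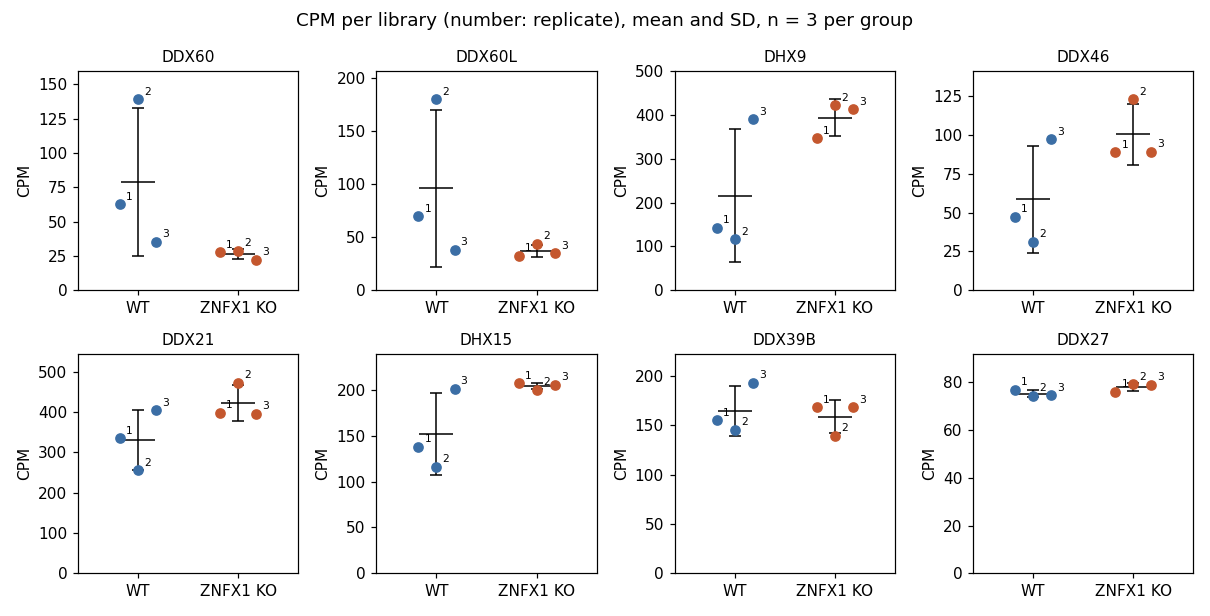
CPM of 8 helicase genes in each library (vertical axis, from 0), by group (horizontal axis), with points numbered by replicate and bars for mean and SD, n = 3 each. WT 2 is the highest point for DDX60 and DDX60L and the lowest WT point for DHX9, DDX46, DDX21, DHX15 and DDX39B, and DDX27 lies between 74.4 and 79.2 CPM in all libraries.

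The spliceosome helicases drive the rearrangements by which the splicing machinery assembles, cuts and comes apart. Of 9 members, 0 rose, 0 fell and 9 did not pass, with 8 positive log2 fold changes and a median of 0.19 (0.10 without WT 2 and 0.25 without WT 3). DDX46, the human Prp5, which acts when the branch point is first recognised, was at 47.4, 31.0 and 97.3 CPM in WT 1, 2 and 3 and at 89.0, 123 and 89.2 CPM in KO 1, 2 and 3. WT 3 lay among the KO libraries, so the groups overlapped (log2 fold change 0.78, SE 0.38, edgeR adjusted p = 0.372). DHX15, the Prp43 homologue that releases the spent intron complex, was the most abundant of the group at 41.1 TPM. It was at 138, 116 and 201 CPM in WT and at 207, 200 and 205 CPM in the KO, again with WT 3 next to the KO values (0.43, SE 0.22, edgeR adjusted p = 0.391). DDX23, the Prp28 homologue, chosen after its values were seen, was at 53.7, 48.2 and 87.1 CPM in WT and 91.8, 75.9 and 94.3 CPM in the KO (0.47, SE 0.24).

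The separations in this group were small where the groups did not overlap. DHX8, the Prp22 homologue that frees the joined mRNA, was at 80.7, 63.7 and 77.9 CPM in WT and 87.2, 82.0 and 85.2 CPM in the KO (0.19, SE 0.16, edgeR adjusted p = 0.571). DDX42, which binds the U2 particle, was the 1 member with a negative value, at 106, 101 and 98.6 CPM in WT and 85.5, 93.8 and 82.1 CPM in the KO (-0.22, SE 0.15, edgeR adjusted p = 0.494). DHX8 and DDX42 were also chosen after their values were seen. The remaining members, DDX41, DHX16, DHX35 and DHX38, had log2 fold changes between 0.06 and 0.31. The median of the group stood at -0.38 in WT 2 and between -0.03 and 0.21 in the other libraries.

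Helicases of transcription, small RNA processing and RNP assembly included the largest positive value. DHX9, a nuclear helicase that resolves RNA structures and R-loops, was at 142, 116 and 391 CPM in WT 1, 2 and 3 and at 347, 423 and 414 CPM in KO 1, 2 and 3. WT 1 and WT 2 were far below the other 4 libraries, and WT 3 lay inside the KO range. The WT libraries differed 3.36-fold among themselves and the KO libraries 1.22-fold. The log2 fold change was 0.87 (edgeR adjusted p = 0.368, SE 0.42). DDX1, a part of the tRNA ligase complex, also had its lowest values in WT 1 and WT 2, at 98.4, 77.4 and 149 CPM in WT and 152, 161 and 143 CPM in the KO (0.49, SE 0.24). DDX20, the gemin of the SMN complex that loads Sm proteins, had a log2 fold change of 0.34.

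DDX5 and DDX17, paralogous co-regulators of transcription, splicing and microRNA processing, varied much less. DDX17 was at 302, 377 and 308 CPM in WT and 374, 366 and 382 CPM in the KO (0.18, SE 0.17, edgeR adjusted p = 0.607). DDX5 was at 161, 182 and 153 CPM in WT and 174, 147 and 182 CPM in the KO, and its log2 fold change of 0.02 (SE 0.17) was -0.01 with the effective length offset and with the joined transcript rows. All 5 members of the group were positive, DDX5 barely so, with 0 called and a median of 0.34. Without WT 3 the median was 0.66 with 4 of 5 positive, and without WT 2 it was 0.29.

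Without WT 3, 7 helicases passed the test, which is 14.6% of the members against 9.02% of all genes. Of these 5 were higher in the KO (4.09% of all genes) and 2 lower (4.93%), the latter being DDX60 and DDX60L. The higher ones were DHX9 at 1.63 (SE 0.20, edgeR adjusted p = 0.0121), DDX46 at 1.37 (SE 0.26, edgeR adjusted p = 0.0249), DDX1 at 0.81, DDX23 at 0.80 and DHX15 at 0.70. These calls rest on 2 WT libraries and were seen in no other alternative for these 5 genes. Without WT 2 the value of DHX9 was 0.57 (SE 0.37, edgeR adjusted p = 0.734) and that of DDX46 0.47 (SE 0.31), those of DDX1, DDX23 and DHX15 were 0.30, 0.31 and 0.27, and 0 members passed.

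The 16 helicases of ribosome assembly remodel pre-rRNA and release small nucleolar RNAs in the nucleolus. None passed, with 0 higher, 0 lower and 16 not called, 10 of 16 positive and a median of 0.07 (0.02 without WT 2 and 0.16 without WT 3). DDX21, a nucleolar helicase that also binds to transcribed genes, was the most abundant, at 335, 256 and 404 CPM in WT and 398, 473 and 396 CPM in the KO (0.35, SE 0.21, edgeR adjusted p = 0.444). Its value was 0.19 without WT 2 and 0.53 without WT 3. Its paralog DDX50 was at 57.9, 50.4 and 38.3 CPM in WT and 61.1, 49.7 and 45.4 CPM in the KO (0.09, SE 0.21), without the high value in WT 3. DDX47, which acts on the small subunit, was at 62.2, 44.4 and 80.5 CPM in WT and 82.2 to 90.7 CPM in the KO (0.49, SE 0.22, edgeR adjusted p = 0.341). This was the only ribosome assembly helicase whose KO libraries all lay above WT, and its value was 0.30 without WT 2 and 0.74 without WT 3. DDX52, low in level, was at 22.9, 16.9 and 29 CPM in WT and 39.7, 33.0 and 28.5 CPM in the KO (0.55, SE 0.23, edgeR adjusted p = 0.318).

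Other members of this group had negative values. DHX37, which releases the U3 small nucleolar RNA from the small subunit precursor, was at 42.0, 54.7 and 58.6 CPM in WT and 41.8, 24.7 and 35.3 CPM in the KO. The groups were only just separate, by the gap between WT 1 and KO 1, and the log2 fold change was -0.61 (edgeR adjusted p = 0.284, SE 0.23). DDX54 was at 76.8, 52.3 and 78.2 CPM in WT and 78.1, 43.0 and 55.8 CPM in the KO (-0.23, SE 0.25), with overlapping groups. Its value ran from -0.48 without KO 1 to -0.03 without KO 2, and was -0.39 without WT 2. DDX31, DDX49, DDX51 and DDX55 lay between -0.22 and -0.04, and DDX10, DDX18, DDX24, DDX56 and DHX33 between 0.05 and 0.35. The sequence CACGTG, the E-box bound by MYC among others and the same on both strands, was in the promoter window of 9 of the 44 members with one (20.5%), DDX21, DDX54, DHX37 and DDX31 of this group among them, against 12.5% of the tested genes and 7.26% of all windows. As a median the group stood at -0.25 in WT 2 and 0.24 in WT 3, with the KO libraries between -0.04 and 0.07.

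DDX27, a large subunit assembly helicase, is the direct neighbour of the targeted gene and was named for that reason after its values were seen. DDX27 (ENSG00000124228.15, chromosome 20, 49219295 to 49244077, plus strand, GRCh38) overlaps the 3' end of ZNFX1 on the opposite strand over 6132 bases. It was at 76.9, 74.4 and 74.6 CPM in WT 1, 2 and 3 and at 76.1, 79.2 and 79.1 CPM in KO 1, 2 and 3. The highest library was only 1.06 times the lowest, while ZNFX1 ranged from 70.5 to 208 CPM in the same libraries. The log2 fold change was 0.05 (edgeR adjusted p = 0.878, SE 0.14). Whether the counting used strand is not given in the sources used here, so reads from the shared stretch may be divided between both genes.

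The 4 export helicases all had negative log2 fold changes, with 0 called and a median of -0.08. Without WT 3 the median was 0.06 and 3 of 4 were positive, and without WT 2 it was -0.16. DDX39B (UAP56) and its paralog DDX39A load export factors onto spliced mRNA, and DDX19B and DDX19A strip them off at the nuclear pore. DDX39B was at 155, 145 and 193 CPM in WT and 168, 139 and 168 CPM in the KO (-0.05, SE 0.18), and DDX39A at 50.9, 43.8 and 64.9 CPM in WT and 41.1, 49.8 and 64.5 CPM in the KO (-0.04, SE 0.22). The groups overlapped in both genes, and the signs of DDX39A and DDX39B turned in some alternatives. DDX19B was at 65.1, 71.9 and 41.8 CPM in WT and 33.5, 48.5 and 39.3 CPM in the KO (-0.56, SE 0.24, edgeR adjusted p = 0.323), with WT 3 among the KO values. DDX19A, its tandem neighbour 11545 bases away on chromosome 16, was at 44.7, 44.9 and 56.0 CPM in WT and 42.6, 42.2 and 49.5 CPM in the KO (-0.12, SE 0.17; 0.02 without WT 3). DDX19A and DDX19B are close copies, so the division of reads between them is uncertain.

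Helicases of translation and mRNA decay were positive in 5 of 5, with 0 called and a median of 0.19. The median was 0.17 without WT 2, with 4 of 5 positive, and 0.47 without WT 3. DDX3X, an X-linked helicase that helps structured mRNAs into translation, was the most abundant of them, at 178, 139 and 323 CPM in WT and 231, 334 and 280 CPM in the KO. WT 3 was close to the highest KO library, and the log2 fold change of 0.40 (edgeR adjusted p = 0.552, SE 0.31) was within the WT spread. It was 0.17 without WT 2 and 0.85 without WT 3 (edgeR adjusted p = 0.0553). DDX6, the helicase of P-bodies, chosen after its values were seen, was at 179, 198 and 188 CPM in WT and 168, 265 and 206 CPM in the KO (0.18, SE 0.20). Here the spread was in the KO, with KO 1 below every WT library and KO 2 and KO 3 above. DHX29, DHX34 and DHX36 had log2 fold changes of 0.19, 0.02 and 0.39.

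The remaining helicases had values between -0.06 and 0.36. DHX30, which serves the mitochondrial ribosome, was at 104, 82.3 and 116 CPM in WT and 116, 78.8 and 112 CPM in the KO (0.02, SE 0.21), and DDX28, with a like role, was at 0.09. DDX11, an iron-sulfur DNA helicase of sister chromatid cohesion, was at 17.1, 10.3 and 27.8 CPM in WT and 22.2, 22.2 and 26.5 CPM in the KO (0.36, SE 0.32, edgeR adjusted p = 0.605). WT 2 was the lowest library and the groups overlapped. The value was 0.08 without WT 2 and 0.80 without WT 3 (edgeR adjusted p = 0.0814). The gene shares sequence with the pseudogene copy DDX12P, so its level is uncertain. DHX40 was at 92.0, 97.5 and 69.9 CPM in WT and 88.2, 82.5 and 78.7 CPM in the KO (-0.06, SE 0.18). DHX57 and DHX32 were among the steadiest members, with the highest library at 1.08 and 1.09 times the lowest.

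Part of the helicase reads lay outside the gene rows. The deposited files also list transcripts on rows of their own that were not joined to a gene, and 445 of these belong to the 48 helicases in GENCODE 29. Of their reads 53.4% were on transcripts annotated with a retained intron and 27.6% on transcripts annotated as targets of nonsense-mediated decay, against 8.62% on protein-coding ones. These shares pool the reads of all 48 genes, so genes with many such reads weigh most. They were not set beside those of other genes. For 28 of 48 helicases over 90% of the reads were in the gene row, with a median of 92.3%. Only DDX52, DDX5 and DDX11 had under 60% there, at 36.1%, 38.2% and 54.6%. The joined rows gave no call among the helicases, and the log2 fold change of DDX52 was then 0.35 in place of 0.55.

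DDX5 shows what these rows hold. Transcripts with a retained intron took 39.3%, 27.2% and 39.4% of its reads in WT 1, 2 and 3, and 33.6%, 31.5% and 26.0% in KO 1, 2 and 3. Most of this was 1 transcript, at 160, 92.6 and 159 CPM in WT and 136, 127 and 89.5 CPM in the KO. The groups overlapped, with WT 2 and KO 3 lowest. Transcripts of DDX5 annotated for nonsense-mediated decay held 20.9% to 23.6% of its reads in WT and 21.7% to 30.9% in the KO. The paralog DDX17 had 12.5% to 19.5% of its reads on retained-intron transcripts in WT and 14.5% to 16% in the KO, again with WT 2 lowest. In DDX52, 57.8% to 63.7% of the reads in WT and 54.7% to 57.0% in the KO were on nonsense-mediated decay transcripts. The groups were just separate in this share. In level these transcripts overlapped, at 35.2, 37.6 and 54.3 CPM in WT and 52.3, 48.1 and 47.5 CPM in the KO. How often such shares separate in other genes was not counted. These shares are estimates of Salmon for overlapping transcripts, and no test was made.

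**Figure D4:**
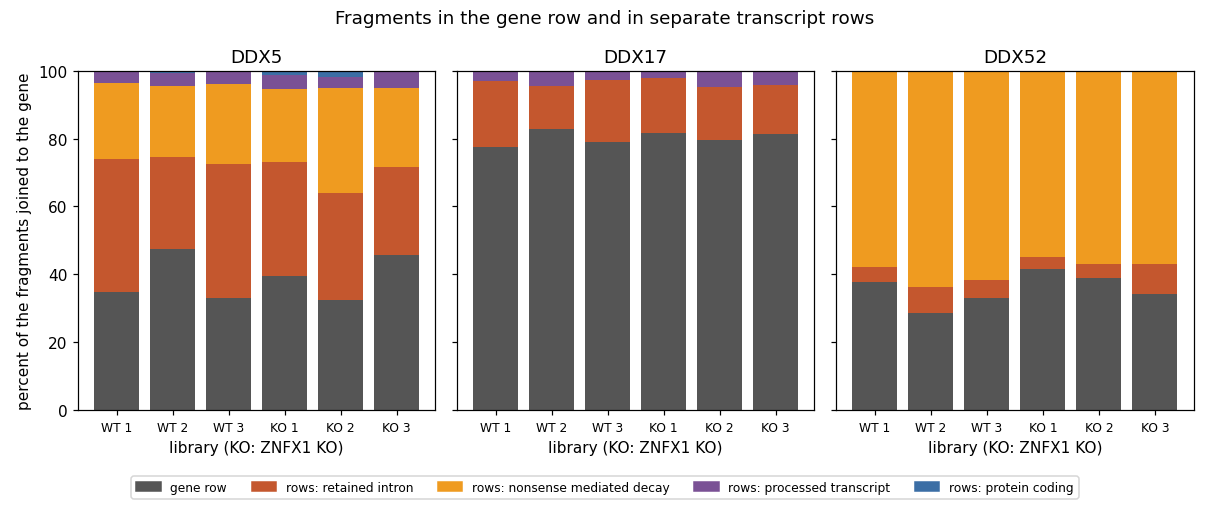
Percent of the fragments joined to DDX5, DDX17 and DDX52 (vertical axis) in each library (horizontal axis) that lay in the gene row or in separate transcript rows, by annotated transcript type (colours). The gene row of DDX5 holds 32.4% to 47.4% in the 6 libraries, that of DDX17 77.4% to 82.9% and that of DDX52 28.7% to 41.5%.

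The partners of the helicases gave no called gene either. Of 6 listed family members with other symbols 4 were tested, with 0 called: EIF4A1, the helicase of the cap-binding complex, was at 820, 667 and 840 CPM in WT and 917, 748 and 878 CPM in the KO (0.13, SE 0.18), and EIF4A2 had a log2 fold change of -0.07 (SE 0.41). Per length EIF4A1, at 326 ± 78.9 TPM in WT and 360 ± 6.73 TPM in the KO, was above every DDX and DHX gene. Among the genes of eIF4F and its helpers 0 of 9 were called (median 0.17, 0.09 without WT 2 and 0.29 without WT 3), with PABPC1 at -0.26 (SE 0.21) and EIF4B at 0.24 (SE 0.17). Of 19 exon junction and export genes 0 were called (median 0.22, 15 positive, 0.37 without WT 3). RBM8A, the Y14 subunit of the exon junction complex, was at 105, 91.9 and 158 CPM in WT and 167, 165 and 182 CPM in the KO (0.54, SE 0.22, edgeR adjusted p = 0.308), without overlap, and THOC3 was at 0.46 (SE 0.28, 0.20 without WT 2 and 0.76 without WT 3).

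The core spliceosome proteins were positive in 16 of 17, with 0 called and a median of 0.30 (0.13 without WT 2 and 0.45 without WT 3). SF3B1 was at 0.22 (SE 0.23, 0.02 without WT 2 and 0.45 without WT 3) and SF3B2 at -0.04 (SE 0.16). Of 22 nucleolar assembly genes 16 were positive, with 0 called and a median of 0.08 (-0.03 without WT 2, with 10 positive, and 0.29 without WT 3, with 21 positive). WT 3 was the highest library in 15 of these 22 and WT 2 the lowest in 15, against 13.7% and 26.9% of all tested genes. NCL, nucleolin, was at 393, 248 and 634 CPM in WT and 489, 753 and 575 CPM in the KO (0.51, SE 0.33, 0.24 without WT 2 and 0.94 without WT 3), and NPM1 at 0.33 (SE 0.21). Of the 14 SMN, tRNA ligase and Microprocessor genes 12 were positive with 0 called (median 0.34, 0.19 without WT 2 and 0.60 without WT 3), with SMN1, which can share reads with its copy SMN2, at 0.47 (SE 0.21) and RTRAF at 0.13 (SE 0.15). The 17 G-patch genes had a median of 0.06 with 0 called (0.10 without WT 3), with PINX1 at -0.17 (SE 0.15) and RBM10 at 0.05 (SE 0.16). The 12 P-body and deadenylation genes, with 0 called, had a median of -0.02, with CNOT7 at 0.30 (SE 0.20) and CNOT1 near 0.

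Cell cycle genes, which follow the share of dividing cells, were also lowest in WT 2. Of 22 listed, 0 rose, 0 fell and 22 did not pass, with all 22 positive and a median log2 fold change of 0.67. Without WT 2 the median was 0.30 with 21 positive, and without WT 3 it was 1.12. Their median relative to the gene mean was -0.27, -1.35 and 0.36 in WT 1, 2 and 3 and between 0.40 and 0.43 in the KO libraries. WT 2 was the lowest library for every one of the 22, against 26.9% of all tested genes. The part of cell division in the helicase levels was not tested, and in bulk RNA fewer cells making a transcript cannot be told apart from less of it per cell.

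**Figure D5:**
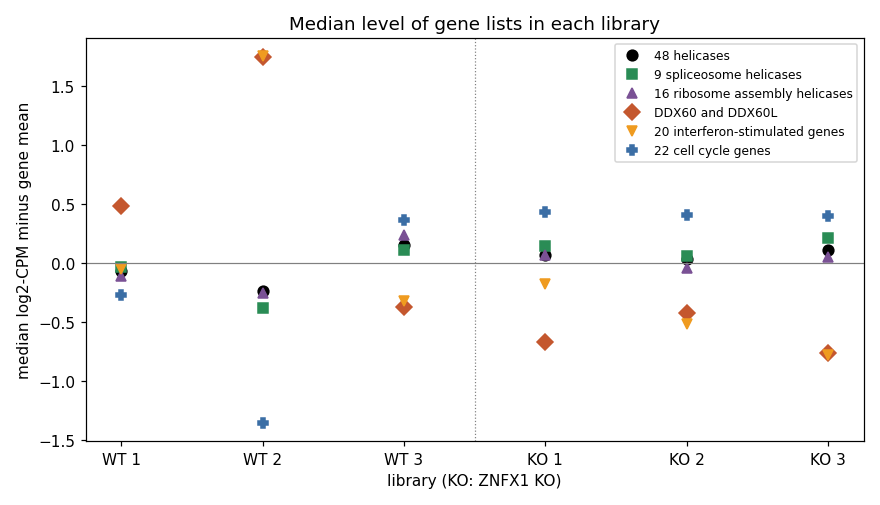
Median log2-CPM minus the gene mean (vertical axis) of the 48 helicases, of the spliceosome, ribosome assembly and interferon-inducible helicases, and of interferon-stimulated and cell cycle genes, in each library (horizontal axis). In WT 2 DDX60 and DDX60L stand at 1.74 with the interferon-stimulated genes at 1.75, the helicases as a whole at -0.24 and the cell cycle genes at -1.35.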

How the data were processed

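Total RNA of 3 WT and 3 ZNFX1 KO samples of TYK-nu was sequenced after stranded library preparation, per the labels' protocols. The estimated counts (rounded here) and TPM values per gene in the deposited files come from Salmon, per the labels. The deposited effective lengths, an other kind of value, entered 1 alternative. FastQC, Trimmomatic and DESeq2 appear in the submitters' processing notes with no step assigned. For genome build, annotation and strand setting, the sources used here give nothing. Beside 62260 gene rows there were 134909 transcript rows with 9.93% to 10.7% of the fragments, used only in the joined alternative and the transcript shares. Gene types and coordinates came from GENCODE 29 (GRCh38). The number of unused sample columns was 0.

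After filterByExpr (14166 genes) and TMM scaling (factors 0.958 to 1.04), ZNFX1 KO and WT were compared with edgeR 4.0.16 in R 4.3.3 (quasi-likelihood, two-sided), with Benjamini-Hochberg adjustment over all genes tested and a threshold of 0.05. SE was taken as |log2 fold change| over the root of F. In simulated data the procedure recovered 41% of 100 genes changed 2-fold and 92% of 100 changed 4-fold, with 10 false calls among 143. Each gene was drawn independently there, and the changed genes were picked among those not at the lowest levels. Smaller changes were not simulated, nor were shifts shared by many genes of a library, such as those of WT 2. No libraries were near-duplicates (chi-square over degrees of freedom 30.8 or more for each pair). DESeq2 1.42.0 and limma 3.58.1 served as alternatives, beside other scaling, filters, TPM with pseudocounts of 1 and 0.1, a replicate block and leaving out each library. Deviations use log2-CPM with a prior count of 2.

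The members, role groups and gene lists were chosen with earlier results of these data known. The rule for named genes took called members, the 5 largest fold changes each way, the 5 highest TPM, the most abundant member of each role, DDX60, DDX60L, DDX3X and 8 paralogs. Of each partner list it took called genes or else the 2 most abundant. Deviations from the group mean correlated at 0.129, -0.041 and 0.007 between libraries sharing a replicate number, and at -0.096 to 0.093 between the others. With 3 libraries per group this cannot settle whether the numbers pair them. The main fit did not pair them.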

Additional observations from a re-analysis of the deposited data

How the results depend on the processing

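The median log2 fold change of the helicases stayed positive in all 16 alternatives, between 0.04 and 0.19 when 1 library was left out, while calls depended on the setting. Of all genes 103 were called, against 602 without the filter, 579 with the DESeq2 Wald test, 187 with joined transcript rows, 66 and 48 with limma on TPM (pseudocounts 0.1 and 1), and 14 with the replicate block, which called 0 helicases. Leaving out 1 library gave 2 (KO 2) to 1315 (WT 3) genes, with 24 without WT 1, 57 without WT 2 and 7 without KO 3. Helicases called were 2 without the filter, 1 with the DESeq2 Wald test and 0 to 7 when 1 library was left out. The cause was not tested. Signs near 0 turned: DDX39A was at 0.01 with joined rows, DDX39B at 0.00 with both TPM pseudocounts, DDX5 at -0.01 with the effective length offset and with joined rows, and EIF4A2 at 0.02 with joined rows. CNOT1 was at 0.01 with DESeq2 size factors, the DESeq2 Wald test and the effective length offset, at 0.02 with joined rows, and at 0.03 without the filter and with both TPM pseudocounts. Leaving out 1 library gave -0.18 to 0.02 for DDX19A, -0.21 to 0.15 for DDX39A, -0.13 to 0.10 for DDX39B, -0.02 to 0.12 for DDX5, -0.04 to 0.24 for DDX50, -0.10 to 0.19 for DHX30, -0.17 to 0.04 for DHX40, -0.09 to 0.11 for CNOT1, -0.73 to 0.21 for EIF4A2 and -0.10 to 0.05 for SF3B2. Without WT 3, ZNFX1 (-1.01), RBM8A (0.82) and SMN1 (0.72) also passed edgeR's test, while without WT 2 they stood at -0.53, 0.39 and 0.38 and did not pass.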
